A study of Xenopus laevis with 6 samples.

Results

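The genes described here encode chemokines and their receptors: small secreted proteins that guide migrating cells, and the membrane receptors that read them. They were measured in cultured animal caps of the frog Xenopus laevis at stage 15. Members were found by name alone, as every probe set whose platform gene symbol begins with cxcl, cxcr or ackr, or with ccl or ccr and a digit. This gave 15 of the 32539 probe sets tested, for 14 genes: 4 ligands, 8 receptors and 2 atypical receptors. The RefSeq gene table lists 34 Xenopus laevis genes whose symbols meet that rule, and 14 of them had a named probe set. The S copies of cxcl12 and ackr3 are among the genes without a named probe set and were not analysed here. The family was taken up because of cxcl12.L, which was chosen by its measured rise over the control in both knockdowns. Those differences are therefore given as a description with no test.

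Animal caps are the upper ectoderm of the blastula, and on their own in culture they form epidermis. Caps of 3 kinds were compared, with 2 arrays each. ERK3 MO1/2 caps received 40 ng each of a pair of antisense morpholino oligonucleotides against ERK3, an atypical mitogen-activated protein kinase. TFAP2A MO1/2 caps received 40 ng each of a pair against TFAP2A, a transcription factor of the AP-2 family that acts in ectoderm. Control MO caps received 80 ng of a control morpholino. In all 3 groups the oligonucleotides went into the animal side of every cell at the 4-cell stage, caps were cut out at stage 9, and no further treatment was given. The labels call the 2 arrays of a group biological replicates, and they do not state how many caps were pooled for an array. Values are probe set intensities after robust multiarray averaging (RMA) by the authors, on a linear scale, and a level of one probe set cannot be set against that of another.

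A chemokine binds a receptor of the G protein-coupled class, which signals through inhibitory G proteins to the actin cytoskeleton and is then switched off by receptor kinases and arrestins. CXCL12 acts through CXCR4, and ACKR3 binds the same ligand but mainly removes it from the tissue. In frog and fish embryos this system is known for guiding mesoderm, neural crest and primordial germ cells, while most other members of the family are known from leukocytes of mammals.

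Across the whole array, log2 values of 2 arrays of the same group correlated at 0.987 to 0.989 over probe sets, which are not independent replicates, and arrays of different groups at 0.962 to 0.983. The log2 ratio of 3′ to 5′ signal lay between 0.76 and 1.34 for gapdh, between 10.67 and 11.25 for actin and between -1.25 and -0.94 for ef1a on the 6 arrays. Each ratio sets 1 probe set against another, so it gives no absolute measure of RNA quality. It can compare arrays only where both probe sets are above background, which was not checked. Among targets, the tfap2a.L transcript averaged 1620.8 ± 277 in ERK3 MO1/2 caps, 1391 ± 147 in TFAP2A MO1/2 caps and 939 ± 263 in Control MO caps (SD, n = 2 each). For tfap2a.S the means were 1146.5 ± 128, 730 ± 16.9 and 623 ± 134 in the same order. Against Control MO only tfap2a.S in ERK3 MO1/2 caps was called, higher by 0.89 on the log2 scale (limma adjusted p = 0.0362). In TFAP2A MO1/2 caps its adjusted p was 0.471, and those of tfap2a.L were 0.0847 for ERK3 MO1/2 and 0.171 for TFAP2A MO1/2. A morpholino need not lower its target's transcript, and 0 probe sets carried the ERK3 symbol mapk6, so these levels do not test the labels. All 26 measured epidermal ectoderm genes, keratins and tp63 among them, were above the lower quartile of all probe sets, used here as the floor of measurement, on at least 1 array. In this list 1 gene fell in ERK3 MO1/2 caps and 6 fell in TFAP2A MO1/2 caps, 3.85% and 23.1% of it, where 11.8% and 12.3% of all 11303 genes were called. On the log2 scale the basal epidermal regulator tp63.L fell by 1.16 ± 0.16 in ERK3 MO1/2 and by 1.37 ± 0.16 in TFAP2A MO1/2 caps (limma adjusted p = 0.0142 and 0.0102). It was dim, at 7.12 and 7.94 in ERK3 MO1/2, 5.96 and 7.12 in TFAP2A MO1/2, and 15.5 and 18.3 in Control MO caps. Of these, 1 TFAP2A MO1/2 array was under the lower quartile. The keratin krt12.5.S fell by 2.16 ± 0.14 in TFAP2A MO1/2 caps (adjusted p = 0.00594).

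The ligand cxcl12.L, also called stromal cell-derived factor 1, was high in both knockdowns. Its intensity was 1296.3 and 963 in ERK3 MO1/2 caps, 952 and 679 in TFAP2A MO1/2 caps, and 91.8 and 75.8 in Control MO caps. All 4 knockdown arrays lay far above both control arrays. Any ERK3 MO1/2 array was between 10.5 and 17.1 times any Control MO array, and any TFAP2A MO1/2 array between 7.40 and 12.6 times. The 2 arrays within a group differed much less, by 1.35-fold in ERK3 MO1/2 and 1.40-fold in TFAP2A MO1/2 caps. On the log2 scale the fitted difference from Control MO was 3.74 ± 0.23 for ERK3 MO1/2 and 3.27 ± 0.23 for TFAP2A MO1/2, where ± is the standard error (SE) of limma's moderated fit with 2 arrays per group, here and for every log2 difference below. Among 11303 genes, each represented by its brightest probe set, these were the 4th and the 3rd largest rises, and they are the values that drew attention to the family. Leaving out any 1 array gave 3.53 to 3.96 for ERK3 MO1/2 and 3.03 to 3.51 for TFAP2A MO1/2. Both comparisons use the same 2 Control MO arrays, so they are not independent of each other. In RNA from a whole cap, more cells expressing a gene and more RNA per cell cannot be told apart.

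The direct comparison of the knockdowns, which did not choose the member, found no call for cxcl12.L. The lower ERK3 MO1/2 array, at 963, was only just above the higher TFAP2A MO1/2 array, at 952, and these have different replicate numbers. By number, ERK3 MO1/2 and TFAP2A MO1/2 read 1296.3 and 952 for replicate 1, and 963 and 679 for replicate 2. The labels do not say that a number marks a shared batch. The log2 difference of ERK3 MO1/2 minus TFAP2A MO1/2 was 0.47 ± 0.23 (limma adjusted p = 0.326), with a 95% interval of -0.10 to 1.04. The interval covers equal levels and also a level in ERK3 MO1/2 caps about 1 log2 unit higher. By size the gene ranked 1056 of 11303 in this contrast.

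**Figure D1:**
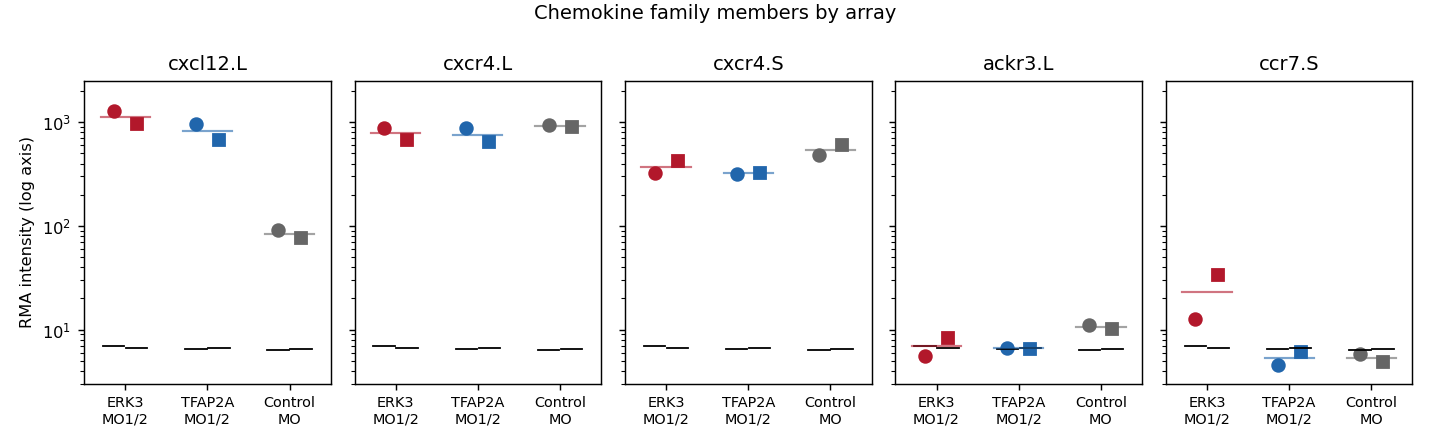
RMA intensity on a log axis for 5 family members on the 6 arrays, with circles for replicate 1, squares for replicate 2, coloured lines for group means and short black lines for each array's lower quartile. For cxcl12.L the 4 knockdown arrays stand at 679 to 1296.3 and the 2 Control MO arrays at 91.8 and 75.8, while ccr7.S clears the quartile only on the ERK3 MO1/2 arrays.

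The other 3 ligands gave no measurable signal in any group. These were cxcl8.L, whose mammalian counterpart attracts neutrophils, ccl5.L, which attracts T cells and monocytes in mammals, and cxcl14.L, a chemokine of epithelia. Their intensities lay between 3.21 and 5.21 on all arrays, under the lower quartile, which was 6.36 to 6.96 depending on the array. The log2 differences from Control MO ran from -0.11 for cxcl8.L to 0.27 for ccl5.L, and in all 3 contrasts none passed the test. Below that quartile an intensity says only that a transcript was not measured above background, and its differences have no order.

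The receptor for Cxcl12 was measured in both homeologues, the L and S copies that the allotetraploid genome of Xenopus laevis carries, and neither rose. The level of cxcr4.L was 888 and 681 in ERK3 MO1/2 caps, 879 and 641 in TFAP2A MO1/2 caps, and 936 and 910 in Control MO caps. Its knockdown arrays were all under the control arrays, by little on 1 array of each knockdown and by more on the other. The log2 difference was -0.25 ± 0.21 for ERK3 MO1/2 (limma adjusted p = 0.498, 95% interval -0.75 to 0.26) and -0.30 ± 0.21 for TFAP2A MO1/2 (adjusted p = 0.427, interval -0.80 to 0.21).

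The S copy, cxcr4.S, read 324 and 423 in ERK3 MO1/2 caps, 319 and 325 in TFAP2A MO1/2 caps, and 480 and 606 in Control MO caps. All 4 knockdown arrays were again below both control arrays. Its log2 difference was -0.54 ± 0.19 for ERK3 MO1/2 (limma adjusted p = 0.123, 95% interval -1.0 to -0.09) and -0.74 ± 0.19 for TFAP2A MO1/2 (adjusted p = 0.0565, interval -1.20 to -0.29), and neither passed the adjusted threshold of 0.05. Without Control MO replicate 2 these were -0.38 and -0.58, and without ERK3 MO1/2 replicate 1 the first was -0.35. With an intensity trend in the fit, the TFAP2A MO1/2 difference passed, at an adjusted p of 0.0408. With the replicate number as a block, which the labels do not call a batch, both passed (0.0304 for ERK3 MO1/2 and 0.0102 for TFAP2A MO1/2). Whether the copies moved unequally was read from the log2 ratio of cxcr4.S to cxcr4.L within each array. That ratio was -1.45 and -0.69 in ERK3 MO1/2 caps, -1.46 and -0.98 in TFAP2A MO1/2 caps, and -0.96 and -0.59 in Control MO caps. The ERK3 MO1/2 ratios overlapped those of Control MO, and the nearest TFAP2A MO1/2 and Control MO arrays, at -0.98 and -0.96, were almost level. Between the knockdowns, cxcr4.L and cxcr4.S differed by 0.05 ± 0.21 and 0.20 ± 0.19 (limma adjusted p = 0.934 and 0.631).

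The atypical receptor ackr3.L, the scavenger of Cxcl12, was dim. Its intensity was 5.54 and 8.31 in ERK3 MO1/2 caps, 6.63 and 6.52 in TFAP2A MO1/2 caps, and 11.1 and 10.2 in Control MO caps. One array of each knockdown was under the lower quartile, and both control arrays were above it and above all 4 knockdown arrays. The log2 difference was -0.64 ± 0.21 for ERK3 MO1/2 (limma adjusted p = 0.107) and -0.69 ± 0.21 for TFAP2A MO1/2 (adjusted p = 0.0901), neither of which passed. For ERK3 MO1/2 it was -0.35 without ERK3 MO1/2 replicate 1, and -0.94 without ERK3 MO1/2 replicate 2, where it passed (0.0435). For TFAP2A MO1/2 the fit of 2 groups only, which cannot change the estimate, had a smaller SE of 0.13 and let it pass (0.0409). Leaving out either ERK3 MO1/2 array gives that same result. With the replicate number as a block both differences passed (0.048 for ERK3 MO1/2 and 0.0388 for TFAP2A MO1/2). With 16 added to each value before the log, the differences were -0.22 and -0.24. The other scavenger, ackr4.L, which in mammals removes ligands of CCR7, ran from 4.68 to 6.69 over the 6 arrays, and its log2 differences of 0.12 and 0.13 did not pass.

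Among the members tested, ccr7.S was the only one called in any contrast. Its mammalian counterpart leads dendritic cells and T cells into lymph nodes. It read 12.7 and 33.5 in ERK3 MO1/2 caps, 4.52 and 6.11 in TFAP2A MO1/2 caps, and 5.77 and 4.82 in Control MO caps. Both ERK3 MO1/2 arrays were above all others, although they differed from each other by 2.64-fold, and the TFAP2A MO1/2 and Control MO arrays overlapped and were under the lower quartile. It rose in ERK3 MO1/2 caps by at least 3.20-fold against that quartile, a bound for the floor and not for the spread between arrays. The fitted log2 difference was 1.97 ± 0.44 (limma adjusted p = 0.0457), with a 95% interval of 0.88 to 3.06. The log2 difference was 2.67 without ERK3 MO1/2 replicate 1 and 1.27 without ERK3 MO1/2 replicate 2. It was 2.1 without Control MO replicate 1 and 1.84 without Control MO replicate 2. With 2 groups only the call was lost (limma adjusted p = 0.0765), and leaving out either TFAP2A MO1/2 array gives that same result. After a second quantile normalization it was lost as well (0.0549). It held with the replicate number as a block (0.00828), with an intensity trend (0.0322) and with dim probe sets dropped (0.0402). With 16 added before the log the difference was 0.82 (adjusted p = 0.145). In TFAP2A MO1/2 caps the 95% interval for ccr7.S was -1.09 to 1.08 (limma adjusted p = 0.997). The knockdowns differed from each other by 1.97 ± 0.44, with an adjusted p of 0.0661 by limma, so that a response of ccr7.S in 1 knockdown and not the other was not called.

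The L copy was not measured above background, so whether it moved with ccr7.S could not be read. The 2 probe sets of ccr7.L lay between 3.78 and 4.85 on all arrays, under the lower quartile. Their log2 differences between ERK3 MO1/2 and Control MO were -0.07 and 0.17 (limma adjusted p = 0.81 and 0.418). Markers of myeloid cells, blood and endothelium stood beside ccr7.S as follows. The list of 25 measured myeloid, blood and endothelial genes had a summed intensity of 3470 and 2850 in ERK3 MO1/2 caps, 2706 and 2577 in TFAP2A MO1/2 caps, and 2521 and 2265 in Control MO caps. Most of that sum was gata2.L, a regulator of blood and also of ectoderm, and the other 24 genes summed to 416 and 649 in ERK3 MO1/2 caps, 621 and 726 in TFAP2A MO1/2 caps, and 638 and 889 in Control MO caps. Without gata2.L the sums of ERK3 MO1/2 and Control MO overlapped. Of the 25, 1 rose and 3 fell in ERK3 MO1/2 caps, and 0 were called in TFAP2A MO1/2 caps. These were 4 and 0 of the 25, beside 11.8% and 12.3% of all genes. Among those that fell, runx1.L, a regulator of blood stem cells, was lower by 1.55 ± 0.21 (limma adjusted p = 0.014). The gene that rose was tek.S, by 2.2 ± 0.41 (adjusted p = 0.0278), given here in addition to the genes named by smallest adjusted p. It read 50.3 and 29.4 in ERK3 MO1/2 caps, 28.7 and 15.3 in TFAP2A MO1/2 caps, and 6.69 and 10.4 in Control MO caps. The pan-leukocyte genes ptprc.L, coro1a.S and lcp1.S were among 12 genes under the lower quartile on all 6 arrays. Others of the list were above it on every array. Of these, spib.S read 171 and 366 in ERK3 MO1/2, 261 and 357 in TFAP2A MO1/2, and 306 and 421 in Control MO caps. In the same order cebpa.L, among those that fell, read 33.5 and 59.7, 96.8 and 113, and 122 and 169. The values of lyz.L were 6.53 and 20.1, 4.93 and 7.11, and 4.51 and 9.9, with 1 array of each group under the quartile. The part of myeloid, blood and endothelial cells in the ccr7.S value was not tested.

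The remaining receptors were not measured above background in most arrays. They were cxcr1.S, which in mammals reads CXCL8, cxcr3.L, which reads interferon-induced chemokines, cxcr6.L, the receptor of CXCL16, and ccr2.L, the receptor of monocyte attractants. The first 3 were under the lower quartile on all 6 arrays. The intensity of ccr2.L was 6.46 and 6.23 in ERK3 MO1/2 caps, 5.55 and 7.40 in TFAP2A MO1/2 caps, and 5.56 and 5.69 in Control MO caps, with only 1 array above it. Over the 8 member probe sets that were under that quartile on every array, the values ran from 3.21 to 6.09, log2 differences from Control MO ran from -0.07 to 0.31 in ERK3 MO1/2 and from -0.19 to 0.20 in TFAP2A MO1/2 caps, and the smallest adjusted p was 0.149.

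**Figure D2:**
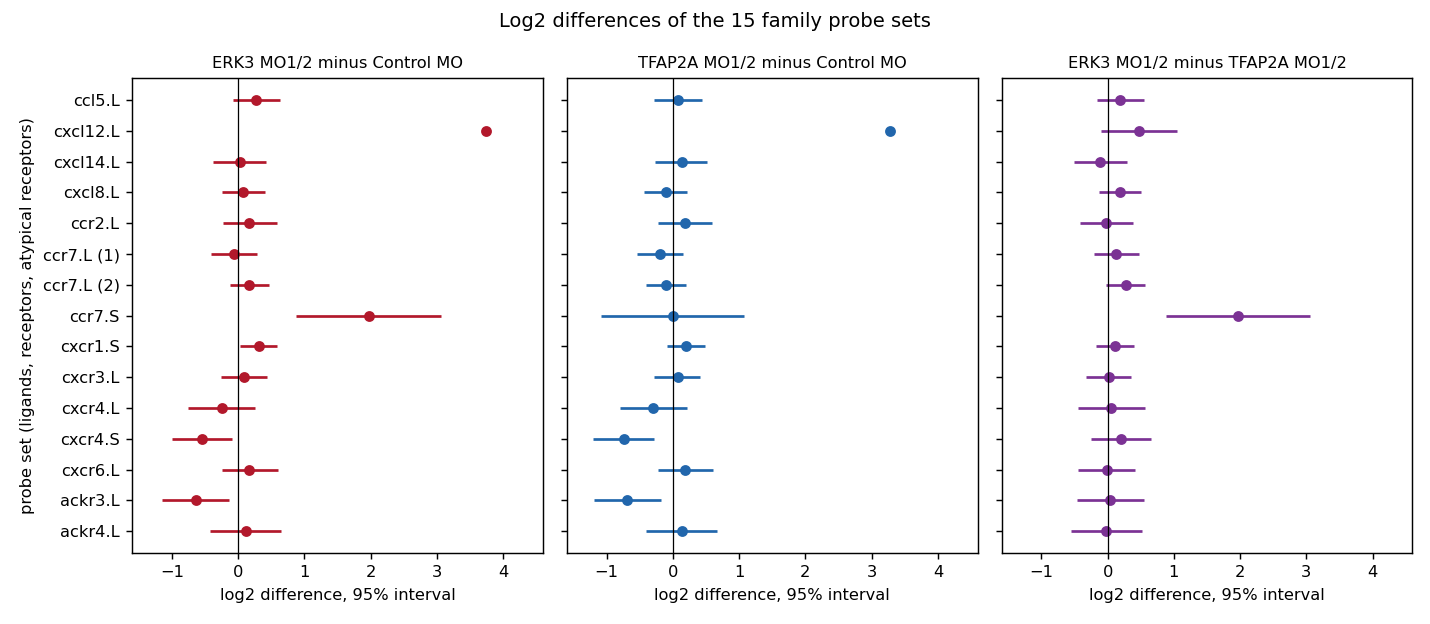
Log2 difference for each of the 15 probe sets in the 3 contrasts, ordered as ligands, receptors and atypical receptors, with 95% intervals from limma's moderated fit except for cxcl12.L against Control MO, which was not tested. Only cxcl12.L, at 3.74 and 3.27, and ccr7.S in ERK3 MO1/2 caps, at 1.97, lie more than 1 unit from 0 in the contrasts with Control MO.

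Counted over the 14 probe sets other than cxcl12.L, limma called 1 higher and 0 lower in ERK3 MO1/2 caps, 7.14% of them, where it called 10.6% of all 32539 probe sets, 4.49% higher and 6.09% lower. At an unadjusted p under 0.05 there were 4 of the 14, where 27.8% of all probe sets were. In TFAP2A MO1/2 caps limma called 0 of the 14, where it called 11.3% of all, 5.3% higher and 6.0% lower, and 2 of the 14 had an unadjusted p under 0.05, where 27.4% of all did. Between the knockdowns limma called 0 of the 14, where it called 4.77% of all, 2.28% higher and 2.49% lower, and 1 of the 14 had an unadjusted p under 0.05, where 20.7% of all did. The members beyond cxcl12.L were not called more often than the array as a whole in any of the 3 contrasts. Its median log2 difference was 0.10 in ERK3 MO1/2 and 0.03 in TFAP2A MO1/2 caps, beside 0.04 and 0.02 over all probe sets. Groups that did not overlap were common on these arrays. Both ERK3 MO1/2 arrays were above both Control MO arrays for 5 of the 14 and below them for 3. Over all probe sets the shares were 31.1% and 25.5% (56.6% either way). Both TFAP2A MO1/2 arrays were above the controls for 1 of the 14 and below them for 6. Here the shares over all were 29.8% and 26.5% (56.3% either way). Both ERK3 MO1/2 arrays were above both TFAP2A MO1/2 arrays for 6 of the 14 and below them for 1. For this contrast the shares over all were 25.9% and 23.6% (49.5% either way). Among the members so counted, ccl5.L, ccr7.L, cxcl8.L, cxcl14.L and cxcr1.S were under the lower quartile on every array, where differences have no order. The same held for ccr2.L on the ERK3 MO1/2 and Control MO arrays. Of the 15 members, 5 had a mean above the lower quartile of all probe sets, and 3 of them, cxcl12.L and both copies of cxcr4, were above it on every array.

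The genes whose profile over the 6 arrays was nearest to that of cxcl12.L were pou5f3.3.L, itgb1bp2.L, rilp.S, ehd2.S and sun2.L. Nearness was the Euclidean distance between log2 values after each gene's own mean was taken off, and the description has no test because the profile of cxcl12.L was known. The nearest, pou5f3.3.L, a POU factor of the early embryo, read 238 and 240 in ERK3 MO1/2 caps, 113 and 158 in TFAP2A MO1/2 caps, and 19.1 and 14.2 in Control MO caps, at a distance of 0.852 and a Pearson r of 0.978. Like cxcl12.L it was higher in ERK3 MO1/2 than in TFAP2A MO1/2 caps on every array. The integrin-binding protein gene itgb1bp2.L came next, at a distance of 1.23 (r = 0.957), with 235 and 190 in ERK3 MO1/2 caps, 80.0 and 136 in TFAP2A MO1/2 caps, and 20.6 and 18.1 in Control MO caps. The lysosomal adaptor gene rilp.S, the membrane-shaping ATPase gene ehd2.S and the nuclear envelope gene sun2.L followed at distances of 1.41, 1.55 and 1.65, with r of 0.977, 0.943 and 0.916. For sun2.L the order of the knockdowns was turned, with 41.4 and 32.4 in ERK3 MO1/2 caps below 70.7 and 67.2 in TFAP2A MO1/2 caps, and 5.06 and 7.71 in Control MO caps. These r rest on 6 arrays that fall into 3 groups, so the step between control and knockdown sets most of their size.

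**Figure D3:**
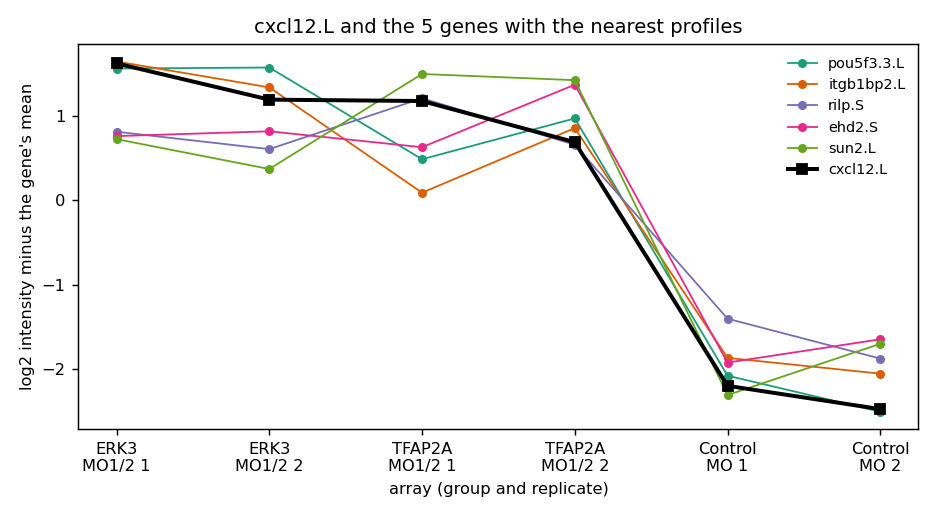
Log2 intensity minus each gene's own mean on the 6 arrays for cxcl12.L (black squares) and the 5 genes with the smallest distance to it. All 6 genes stand above 0 on the 4 knockdown arrays and below 0 on both Control MO arrays.

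Genes that carry the signal of a chemokine receptor were mostly not called, and those that were went both ways. Of 61 measured signalling genes, 2 rose and 5 fell in ERK3 MO1/2 caps, where 11.8% of all 11303 genes were called, and 6 rose and 4 fell in TFAP2A MO1/2 caps, where 12.3% were. The list's median log2 difference was 0.12 and 0.09, beside 0.01 over all genes in each. The G protein subunit gene gnai2.S, of the inhibitory class that CXCR4 uses, fell by 1.67 ± 0.18 in ERK3 MO1/2 caps and by 1.46 ± 0.18 in TFAP2A MO1/2 caps (limma adjusted p = 0.00986 and 0.0111). Its intensity was 18.4 and 16.7 in ERK3 MO1/2 caps, 22.7 and 18.1 in TFAP2A MO1/2 caps, and 62.5 and 49.9 in Control MO caps, so no knockdown array came near the controls. The other inhibitory subunit genes measured, gnai1.L, gnai1.S and gnai3.S, were looked up after gnai2.S was seen, and none of the 3 passed in either knockdown. The arrestin gene arrb2.L, which ends receptor signalling and starts its uptake, rose by 0.63 ± 0.11 and 0.67 ± 0.11 (adjusted p = 0.0268 and 0.0224). Its S copy arrb2.S did not pass, with estimates of -0.52 ± 0.65 and -0.57 ± 0.65 (adjusted p = 0.663 and 0.65).

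In ERK3 MO1/2 caps 2 genes for Rac exchange factors, which switch on the cytoskeletal regulator Rac, were called. There vav2.S fell by 1.32 ± 0.13 and tiam1.S by 1.06 ± 0.21 (limma adjusted p = 0.00836 and 0.0312). In TFAP2A MO1/2 caps tiam1.S fell by 0.93 ± 0.21 (adjusted p = 0.0409), and the difference of vav2.S was -0.42 ± 0.13 (adjusted p = 0.0894). A further exchange factor gene, prex1.L, did not pass in either, at -0.18 ± 0.14 and -0.04 ± 0.14 (adjusted p = 0.476 and 0.912). Between the knockdowns vav2.S was lower in ERK3 MO1/2 caps by -0.90 ± 0.13 (adjusted p = 0.0247). The G protein beta subunit gene gnb4.L rose in both, by 0.58 ± 0.12 and 0.93 ± 0.12 (adjusted p = 0.0378 and 0.0127). The focal adhesion kinase gene ptk2.S rose by 1.48 ± 0.14 in TFAP2A MO1/2 caps and the tyrosine kinase gene src.S fell by 1.22 ± 0.14 there (adjusted p = 0.00835 and 0.0102). Both differed from ERK3 MO1/2 caps in the direct contrast, ptk2.S by -0.97 ± 0.14 and src.S by 0.97 ± 0.14 (adjusted p = 0.0259 and 0.0255). Their L copies ptk2.L and src.L did not pass in that contrast (-0.48 ± 0.26 and 0.25 ± 0.13, adjusted p = 0.366 and 0.345). The Janus kinase gene jak2.L was lower in ERK3 MO1/2 than in TFAP2A MO1/2 caps by -0.74 ± 0.12 (adjusted p = 0.0296). In the direct contrast 1 of the 61 was higher and 4 were lower in ERK3 MO1/2 caps, where 5.7% of all genes were called.

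Of 14 genes that cleave, bind or present the ligand, 1 rose and 1 fell in ERK3 MO1/2 caps and 2 rose and 1 fell in TFAP2A MO1/2 caps. These were 14.3% and 21.4% of the list, beside 11.8% and 12.3% of all genes. The matrix protease gene mmp3.L fell in both, by 1.53 ± 0.15 and 1.23 ± 0.15 (limma adjusted p = 0.00893 and 0.0112). The heparan sulphate proteoglycan gene sdc4.L, whose mammalian product binds CXCL12 through its sugar chains, rose by 0.74 ± 0.12 and 0.56 ± 0.12 (adjusted p = 0.0186 and 0.0351). Its S copy rose by 0.82 ± 0.16 in TFAP2A MO1/2 caps (adjusted p = 0.0316) and differed by 0.56 ± 0.16 in ERK3 MO1/2 caps, which did not pass (0.0835).

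Of 24 genes for factors reported to act on CXCL12, CXCR4 or ACKR3 in vertebrates, 2 rose and 1 fell in ERK3 MO1/2 caps and 2 rose in TFAP2A MO1/2 caps. These were 3 and 2 of the 24, shares near or below the 11.8% and 12.3% of all genes. The zinc finger factor gene yy1.S rose in both, by 0.82 ± 0.15 and 0.80 ± 0.15 (limma adjusted p = 0.0288 and 0.0293). Its L copy yy1.L did not pass in either, at 0.14 ± 0.15 and 0.50 ± 0.15 (adjusted p = 0.589 and 0.0845). The hypoxia factor gene epas1.S rose in ERK3 MO1/2 caps, by 0.96 ± 0.17 (adjusted p = 0.0256), and was higher there than in TFAP2A MO1/2 caps by 1.02 ± 0.17 (adjusted p = 0.0335). Its L copy epas1.L had an estimate of the other sign in ERK3 MO1/2 caps, -0.50 ± 0.16, which did not pass (adjusted p = 0.109). The gene egln2.L, for a prolyl hydroxylase that marks hypoxia factors for destruction, rose by 1.10 ± 0.18 in TFAP2A MO1/2 caps (adjusted p = 0.0194) and was lower in ERK3 MO1/2 than in TFAP2A MO1/2 caps by -1.63 ± 0.18 (adjusted p = 0.0181). The nuclear factor kappa B gene nfkb2.S fell by 0.67 ± 0.15 in ERK3 MO1/2 caps (adjusted p = 0.0448).

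Among 10 measured genes of other chemoattractants and their receptors, 2 fell in ERK3 MO1/2 caps and 1 in TFAP2A MO1/2 caps, 20.0% and 10.0% of the list beside 11.8% and 12.3% of all genes. The apelin receptor gene aplnr.L, which serves mesoderm and vessel migration, read 21.9 and 24.4 in ERK3 MO1/2 caps, 73.2 and 72.1 in TFAP2A MO1/2 caps, and 87.8 and 71.4 in Control MO caps. It fell by 1.78 ± 0.15 in ERK3 MO1/2 caps (limma adjusted p = 0.00807), and in the direct contrast it was lower than in TFAP2A MO1/2 caps by -1.65 ± 0.15 (0.0136), as was aplnr.S by -1.42 ± 0.20 (0.0245). The lysophosphatidic acid receptor gene lpar2.S fell in both, by 1.87 ± 0.31 and 1.65 ± 0.31 (adjusted p = 0.0223 and 0.0284).

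The calls in these 4 lists rested on few arrays, as did those over all probe sets. Of the 11 genes named for ERK3 MO1/2 against Control MO, limma called 0 without either Control MO array and 2 without ERK3 MO1/2 replicate 1. Of the 10 named for TFAP2A MO1/2, it called 0 without Control MO replicate 2 or TFAP2A MO1/2 replicate 2, 1 without Control MO replicate 1 and 3 without TFAP2A MO1/2 replicate 1. Of the 8 named for the direct contrast, it called 0 without any 1 of the 4 knockdown arrays.

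**Figure D4:**
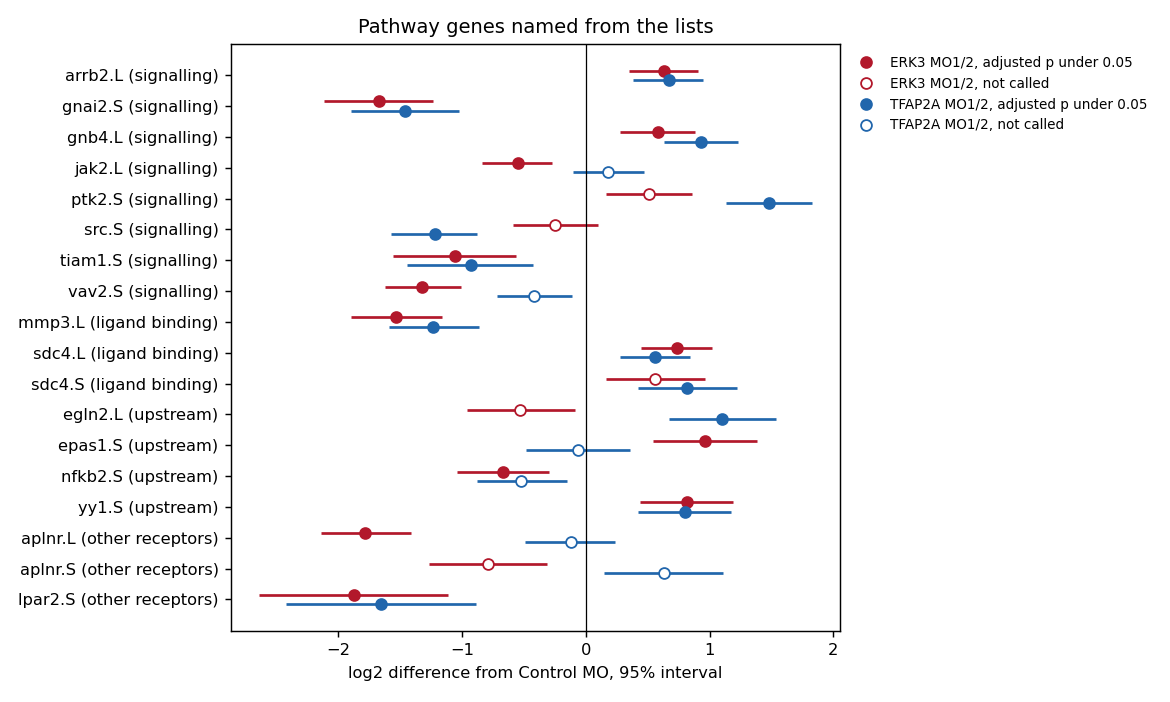
Log2 difference from Control MO with its 95% interval for the 18 pathway genes named by their adjusted p in any contrast, with ERK3 MO1/2 above TFAP2A MO1/2 in each pair and filled points for an adjusted p under 0.05. The largest falls shared by both are those of lpar2.S and gnai2.S, and aplnr.L lies at -1.78 in ERK3 MO1/2 and at -0.12 in TFAP2A MO1/2 caps.

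Markers of other cell types were summed beside the member values. The 21 measured neural crest genes summed to 2499 and 3027 in ERK3 MO1/2 caps, 2279 and 2562 in TFAP2A MO1/2 caps, and 3911 and 4090 in Control MO caps. Much of that sum was pax3.L, a factor of the neural plate border, at 2391.8 and 2237.2 in Control MO caps, and it fell by 0.63 ± 0.15 in ERK3 MO1/2 and by 0.92 ± 0.15 in TFAP2A MO1/2 caps (limma adjusted p = 0.0486 and 0.0185). The crest factor gene sox8.L also fell in both, by 1.56 ± 0.12 and 0.69 ± 0.12 (adjusted p = 0.00725 and 0.0209). Of the 21, 3 fell in ERK3 MO1/2 caps and 2 in TFAP2A MO1/2 caps, 14.3% and 9.52% of the list beside 11.8% and 12.3% of all genes, while 7, sox10.L and both copies of foxd3 among them, were under the lower quartile on all arrays.

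The 12 germ cell genes summed to 709 and 846 in ERK3 MO1/2 caps and 953 and 1018 in TFAP2A MO1/2 caps. In Control MO caps they summed to 1128 and 1251. Much of each sum was ddx4.L, named here for that reason. It read 389 and 485 in ERK3 MO1/2, 504 and 597 in TFAP2A MO1/2, and 695 and 896 in Control MO caps. Its log2 differences from Control MO were -0.86 ± 0.19 and -0.52 ± 0.19 (limma adjusted p = 0.045 and 0.146). Of the 12, 1 rose and 4 fell in ERK3 MO1/2 caps, and 1 rose and 1 fell in TFAP2A MO1/2 caps. These were 41.7% and 16.7% of the list beside 11.8% and 12.3% of all genes. The RNA helicase gene ddx25.L, known from germ plasm, was lower in both, by -2.84 ± 0.21 and -0.98 ± 0.21, and tdrd7.L, for a Tudor protein of germ granules, rose in both, by 0.86 ± 0.17 and 0.91 ± 0.17 (limma adjusted p = 0.00725, 0.0369, 0.0355 and 0.0293).

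The 31 mesoderm genes summed to 1171 and 1301 in ERK3 MO1/2 caps and 1639 and 1538 in TFAP2A MO1/2 caps. In Control MO caps they summed to 1562 and 1607. Much of each sum was bmp4.S, which was not called in either knockdown. It read 678 and 716 in ERK3 MO1/2, 604 and 732 in TFAP2A MO1/2, and 653 and 702 in Control MO caps. Of the 31, 5 were lower in ERK3 MO1/2 caps, and 2 were higher and 2 lower in TFAP2A MO1/2 caps. These were 16.1% and 12.9% of the list beside 11.8% and 12.3% of all genes. The level of fgf8.L, a secreted signal, fell by at least 1.16 (log2) in ERK3 MO1/2 caps, taken against the lower quartile (limma adjusted p = 0.0152), and mix1.S was higher in TFAP2A MO1/2 caps by at least 0.40 taken the same way (adjusted p = 0.0164). The 17 endoderm genes summed to 801 and 1235 in ERK3 MO1/2 caps, 1184 and 1824 in TFAP2A MO1/2 caps, and 1175 and 1722 in Control MO caps, and 2 of them (11.8%, the same share as of all genes) fell in ERK3 MO1/2 caps, gata4.L by 1.03 ± 0.12 (adjusted p = 0.0101). The 19 neural genes summed to 1099 and 1442 in ERK3 MO1/2 caps, 1226 and 1411 in TFAP2A MO1/2 caps, and 1472 and 1770 in Control MO caps. In each knockdown 1 of the 19 was called, 5.26% of the list beside 11.8% and 12.3% of all genes. For ERK3 MO1/2 this was tubb2b.S, lower by -1.38 ± 0.17 (adjusted p = 0.0117). For TFAP2A MO1/2 it was otx2.S, lower by -0.69, a bound taken against the lower quartile (adjusted p = 0.0206). None of these 5 lists had a sum above both Control MO arrays on all 4 knockdown arrays. The myeloid, blood and endothelial sum had, through gata2.L, and the other 24 genes of that list had not. Of the 7 marker genes named for ERK3 MO1/2, limma called 0 without either Control MO array and 2 without ERK3 MO1/2 replicate 1, and of the 5 named for TFAP2A MO1/2 it called 0 without Control MO replicate 2 and 1 without Control MO replicate 1 or either TFAP2A MO1/2 array. Calls over all probe sets fell in these fits as well. The part of the listed cell types in the levels of cxcl12.L, cxcr4.S and ackr3.L was not tested.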

How the data were processed

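Total RNA, 250 ng an array, was hybridised to Affymetrix's second Xenopus laevis GeneChip (version 2.0). The deposited intensity values are 1 per probe set, made by the authors with RMA in Expression Console after image reading with GeneChip Operating Software 1.4, per the series' design text; RMA aligns arrays by quantiles and can hide a change most transcripts share. Values ran from 2.508 to 14672.2 and so were linear; log2 was taken with no constant. Arrays have no depth, and 2 per group limits precision. The 96 control probe sets were left out. Symbols came from a platform annotation of 2016: 15495 probe sets had 1, 279 several and 16765 none; 15384 matched RefSeq's Xenopus_laevis_v10.1 table, used for names only. Coordinates are not printed, since no genome build was used.

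limma 3.58.1 (lmFit, eBayes) in R 4.3.3 fitted 1 mean per group over 6 arrays (3 residual and 2.99 prior degrees of freedom). P-values are two-sided, adjusted by Benjamini-Hochberg over 32539 probe sets, called under 0.05, and measure only the spread between these arrays. The code of the fit was run on simulated arrays with independent noise, which checks the code and not the calls made here. For a group with both arrays below the lower quartile, "at least" marks a change measured from that quartile. It does not allow for the spread between arrays. A gene is its brightest single-symbol probe set. Members and lists were chosen with earlier results of these data known. Named were cxcl12, cxcr4, ackr3, any called member, the 5 nearest profiles among 10962 genes that are neither members nor clone identifiers, and called genes with the smallest adjusted p, up to 4 per pathway list and 1 per marker list and contrast. Alternatives left out each array, added a replicate block, repeated quantile normalization, added 16 before the log, dropped dim probe sets, fitted 2 groups only, added an intensity trend, or used another probe set.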

Additional observations from a re-analysis of the deposited data

Results flagged for a closer look

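The genes below were named because limma called them in the direct contrast of ERK3 MO1/2 minus TFAP2A MO1/2. There limma called 5.7% of all genes, and the number named is fixed by that choice. Like the calls over all probe sets, their calls were lost or fell with fewer arrays. With any 1 of the 4 knockdown arrays left out, 0 of the 8 pathway genes and 0 of the 7 marker genes were called, and with 2 groups only 3 of each were. Lower in ERK3 MO1/2 caps on the log2 scale were ddx25.L (-1.86), runx1.L (-1.66), aplnr.L (-1.65), egln2.L (-1.63), aplnr.S and tubb2b.S (-1.42 each), gata4.L (-1.02), ptk2.S (-0.97), vav2.S (-0.90), mix1.S (-0.88), sox8.L (-0.87) and jak2.L (-0.74). Higher in ERK3 MO1/2 caps were krt12.5.S (1.75), epas1.S (1.02) and src.S (0.97). For mix1.S, the ERK3 MO1/2 arrays were under the lower quartile. With 2 arrays a group, no single array could be tested as standing apart.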

How the results depend on the processing

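In every alternative tried cxcl12.L stayed higher in both knockdowns, by a log2 difference of 3.51 to 3.96 in ERK3 MO1/2 and 3.03 to 3.51 in TFAP2A MO1/2 caps. Over 147 log2 differences of members and named genes, 0 of those called in the 6-array fit changed sign under any alternative. This is no measure of stability. The block, the intensity trend, dropping dim probe sets and fitting 2 groups only leave the estimate as it is. Where the arrays of 2 groups do not overlap, leaving 1 out cannot turn the sign. Labels give both replicate numbers to each group but do not say that a number marks a shared batch. Deviations of same-numbered arrays from their group means correlated at 0.595 (ERK3 MO1/2 with TFAP2A MO1/2), 0.535 (ERK3 MO1/2 with Control MO) and 0.545 (TFAP2A MO1/2 with Control MO) over probe sets. With the replicate number as a block, limma called 7945 probe sets for ERK3 MO1/2, 7934 for TFAP2A MO1/2 and 4831 between the knockdowns, against 3443, 3677 and 1552 without it. Under the block 2 members were called lower in each knockdown: cxcr4.S (0.0304 in ERK3 MO1/2, 0.0102 in TFAP2A MO1/2) and ackr3.L (0.048 and 0.0388). In the direct contrast the block called 1 member higher besides cxcl12.L (0.0471), namely ccr7.S (0.0127).

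For ERK3 MO1/2 the count of members called higher was 0 after a second quantile normalization (ccr7.S at 0.0549), with 16 added before the log, and with 2 groups only (0.0765). The call of ccr7.S held with the block, the intensity trend and dim probe sets dropped. With an intensity trend 1 member was called lower in TFAP2A MO1/2 caps (cxcr4.S, 0.0408) and 1 higher between the knockdowns (ccr7.S, 0.0477). With 2 groups only, limma called 2002 probe sets for ERK3 MO1/2 and 295 between the knockdowns, and 1 member lower in TFAP2A MO1/2 caps (ackr3.L, 0.0409). Leaving out each array in turn, where the lone array is assumed to vary like the others, the calls over all probe sets ran from 0 to 2002 for ERK3 MO1/2, from 7 to 3000 for TFAP2A MO1/2 and from 0 to 295 between the knockdowns. Members called higher in ERK3 MO1/2 caps, and members called lower in either knockdown, ran from 0 to 1 each. The cause of these shifts was not tested. Limits are the 2 arrays per group, the signal of most members at background, and a single probe set for most genes.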
